A study of Bos taurus with 16 samples.

Results

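Liver-restricted abundant genes are described here in 3-month-old bull calves that came from 2 kinds of embryo. A gene was included when its mean in the 8 liver libraries was at least 50 CPM (a gene's count scaled to a common library total of 1000000) and at least 100 times its mean in the 8 muscle libraries, after 0.1 CPM had been added to the muscle mean. Of 27607 gene IDs, 2363 reached the liver level, 377 passed both thresholds, and 366 remained after 11 genes had been left out by name. Those 11 carry the symbols of drug-metabolising enzyme and transporter families (GSTA2, CYP2C18, CYP7A1, UGT3A2, ABCC2, SLC22A7, SLC39A5, SLC25A47, SLC17A3, SLC38A4 and SLCO1A2). The pancreatic gene PRSS2 was left out by the same rule. A symbol could be paired with 97 of the 366 genes, and the other 269 are known here by their Ensembl ID only.

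The 16 poly(A) RNA libraries came from 8 male Holstein calves, each of which gave right-lobe liver and semitendinosus muscle. Of these calves, 4 (3208, 3209, 5833 and 5841) grew from in vitro-produced (IVP) embryos, made from oocytes aspirated from the ovary and fertilised and cultured outside the cow, and 4 (3213, 3217, 3218 and 5932) from multiple ovulation and embryo transfer (MOET), in which embryos are collected from a superstimulated cow after insemination. All embryos developed in recipient cows, and the calves were kept in the same herd, and for their last days in hospital stables, until they were euthanised at 98 to 104 days, except MOET calf 3213, at 144 days. All IVP calves had 1 dam, which was also the dam of MOET calves 3217 and 3218. The IVP calves 3208 and 3209 and the MOET calves 3217 and 3218 also shared 1 sire, whereas IVP calves 5833 and 5841 had another sire and MOET calves 3213 and 5932 another dam, so embryo origin and parentage cannot be told apart outside those 4 calves.

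The hepatocyte, the main cell type of the liver, secretes most plasma proteins, among them carriers of hormones and vitamins, clotting factors, complement proteins and the apolipoproteins that package lipids for transport. It also makes glucose and ketone bodies for other organs, breaks down amino acids and turns cholesterol into bile acids. Skeletal muscle carries out few of these tasks, which makes it a contrast for genes of this kind. No other organ was compared here, so liver-restricted means restricted against this muscle only. The members need not be specific to liver or to hepatocytes.

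Library totals were 22758137 to 24667728 counts in liver and 23677247 to 25626474 in muscle. The organ labels held against 6 muscle fibre genes, whose summed level was 125259 to 172184 CPM in muscle and at most 1.02 CPM in liver. That of the hepatocyte markers that have a name (APOA1, APOB, APOA2 and TTR) was 8375 to 18416 CPM in liver and at most 36.8 CPM in muscle. All 4 are members, which were chosen for this organ difference, so their level is no check of the labels. Albumin was not paired with a name, so it could not be looked up. The liver counts of calf 3213 lay closer to the mean of the other MOET calves than those of any other calf. Over the 366 genes its median absolute log2 deviation from them was 0.02, whereas the deviations of 3217, 3218 and 5932 from the rest of their group were 0.12, 0.20 and 0.19. The deposited counts had been adjusted for age, and calf 3213 alone was older, so it was left out of the means (IVP n = 4, MOET n = 3). It stayed in the edgeR quasi-likelihood fit, which had age as a covariate.

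The 366 genes, 1.33% of all gene IDs, held a large share of the liver RNA. They took 46.1%, 46.9%, 46.9% and 43.7% of the counts in IVP calves 3208, 3209, 5833 and 5841, and 45.7%, 46.5%, 47.6% and 42.5% in MOET calves 3213, 3217, 3218 and 5932. The groups overlapped, and the lowest library in each was the one with the highest or lowest scaling factor of its organ (5841 and 5932). For these bulk libraries, fewer cells of a type and less RNA per cell cannot be told apart. In muscle the same genes took 0.0228% to 0.0350% of the counts. Within liver the share was uneven, since 12 to 15 of the 366 genes held 50% of their counts in a library. The most abundant, ENSBTAG00000017121 (named after its values were seen), took 6.47% to 9.93% of a library by itself.

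Levels ran from 50.7 to 87214 CPM with a median of 309.9 CPM. At least 1000 CPM was reached by 77 genes, 147 lay between 200 and 1000 CPM, and 142 lay below 200 CPM. In muscle 73 of the 366 genes had no count in any library, and 132 had at least 1 count in each. CPM is not corrected for transcript length, so these values do not rank genes by number of transcripts.

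**Figure D1:**
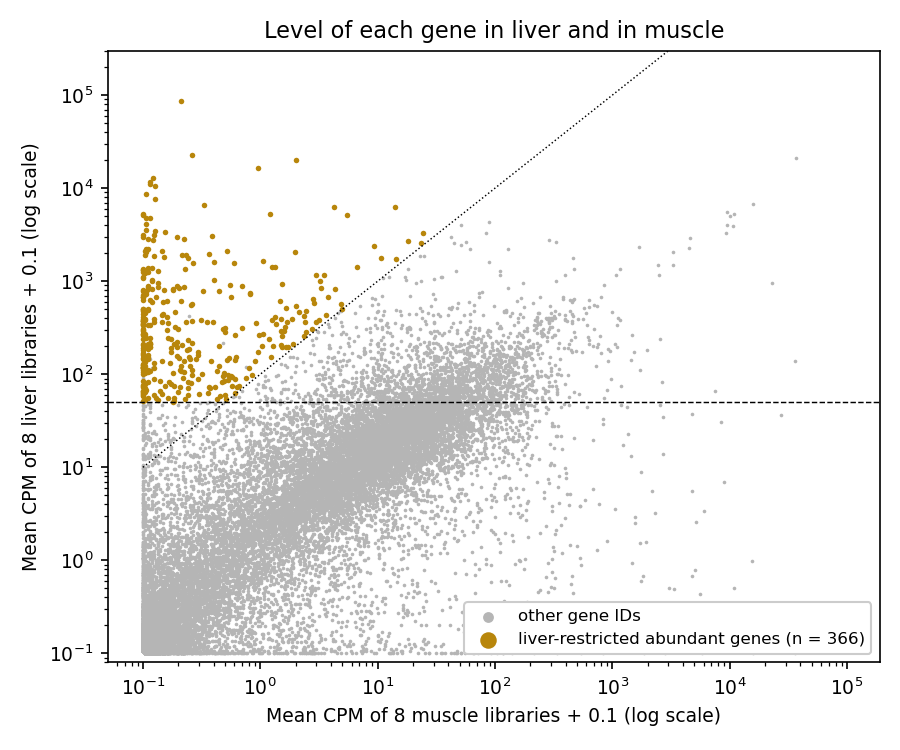
Mean level of each gene ID in the 8 muscle libraries (x axis) and in the 8 liver libraries (y axis), in CPM with 0.1 added, on log scales. The dashed line is 50 CPM in liver and the dotted line is 100 times the muscle value; the 366 liver-restricted abundant genes (gold) lie above both lines.

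The thresholds cut through a continuum of values. Just inside the liver threshold were ENSBTAG00000016249 (50.7 CPM), ENSBTAG00000038532 (51.2 CPM), ENSBTAG00000005725 (52.4 CPM) and ENSBTAG00000021795 (52.5 CPM), and just outside were PPP2R2B (49.3 CPM), HHIP (48.4 CPM) and ENSBTAG00000001815 (48.4 CPM). Just inside the organ ratio were ENSBTAG00000006707 at 102.7 times, ENSBTAG00000011356 at 104.7 times, RELN at 106.0 times, the diamine oxidase gene AOC1 at 108.5 times and ENSBTAG00000005586 at 109.5 times. NUPR1, at 98.3 times, ENSBTAG00000021516, at 97.2 times, and ENSBTAG00000015930, at 97.0 times, fell just short.

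The comparison of IVP with MOET liver asked whether the origin of the embryo leaves a mark on these genes 3 months after birth. All 366 passed the filter on low counts. At a false discovery rate (FDR) of 0.05 in edgeR with age as covariate, 0 of the 366 were called, against 5 of all 14290 genes tested (0.035%). The lowest FDR of a member was 0.125. At an unadjusted p under 0.05, 76 genes were higher in IVP liver (20.8%), where 14.8% of all genes tested were higher, and 26 were lower (7.10%), where 15% of all genes were lower. Those 102 genes had FDR values of 0.125 to 0.168. The number called depended on the model: 75 genes passed an FDR of 0.05 without the age covariate (21% of all genes tested), 53 with DESeq2 and age (10.6%), and 125 with DESeq2 without age (29.8%). It also depended on single calves, with 53 called without MOET calf 3213 (15.2% of all genes) and 32 without IVP calf 5841 (8.41%). Both fits kept the age covariate. Without calf 3213 the ages ran only from 98 to 104 days, with calf 5841 the youngest at 98 days. The parts of calf 3213 and of the age term in the 53 cannot be told apart. With calf 3213 and the age covariate both left out, 0 were called. Differences are therefore given below as levels and estimates, with unadjusted p-values from the edgeR fit with age, none of which passed the correction.

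Estimates leaned towards higher levels in IVP liver. The log2 fold change (IVP minus MOET) was above 0 for 230 of 366 genes (62.8%, against 49.7% of all genes tested), with a median of 0.14 against 0.00 for all genes. All 4 IVP calves lay above MOET calves 3217, 3218 and 5932 for 65 genes (16.3% of all genes tested did so), and below them for 29 (16.7% of all genes). With library totals as the scale these counts were 46 (10.1% of all genes) and 55 (22.2%). The lean was shared by other abundant genes. Among the 1997 other genes of at least 50 CPM in liver, the median was 0.15, 28.6% were higher and 7.71% lower at an unadjusted p under 0.05.

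The split between higher and lower depended on how libraries were scaled. With library totals in place of TMM factors (trimmed mean of M-values, which scale libraries on the bulk of their genes), 49 genes were higher and 48 lower at an unadjusted p under 0.05, so that 50.5% of these genes were higher instead of 74.5%. The background was then 7.91% higher and 22.3% lower. The median of all genes shifted to -0.16 and that of the 366 genes to -0.02, which left the distance between both medians at 0.14.

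**Figure D2:**
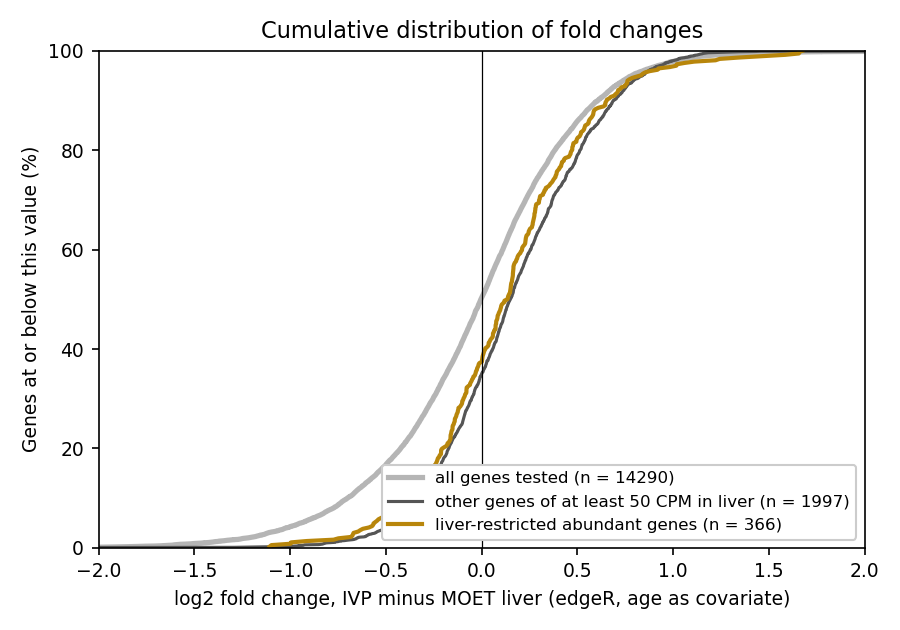
Cumulative share of genes (y axis, %) by log2 fold change of IVP against MOET liver (x axis). The liver-restricted abundant genes (gold, n = 366, median 0.14) and other genes of at least 50 CPM in liver (dark grey, n = 1997, median 0.15) follow nearly the same curve, to the right of all genes tested (light grey, n = 14290, median 0.00) over most of the range.

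The genes with a symbol and those without differed in their counts. Of the 97 named genes, 48 were higher and 17 lower at an unadjusted p under 0.05, with a median log2 fold change of 0.41. Of the 269 without a name, 28 were higher and 9 lower, with a median of 0.07. However, 58 of the 97 names came from a list that had been chosen for a difference between IVP and MOET liver in these same libraries, so their counts (42 higher, 13 lower) are not independent evidence of a direction. The 269 without a name hold no gene that this list gives a symbol, so they are selected as well. Other lists come from the same study of these calves, so genes named from them are not an unselected contrast either. Among the 39 genes named from other lists, 6 were higher and 4 lower, with a median of 0.16. The higher ones were LECT2, PROC, SERPINA11, STAP2, AGXT and LOC112441481, and the lower ones were F5, SERPINA10, HAO2 and MGC152281, all read off after their values were seen. Without calf 5841 the estimate of STAP2 was 0.30 instead of 0.46. The role groups below consist of named genes only and carry this selection. Their counts stand beside 14.8% higher and 15% lower at an unadjusted p under 0.05 among all genes tested, 28.6% and 7.71% among the other genes of at least 50 CPM in liver, and 49.5% and 17.5% among the 97 named genes.

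Of the 7 lipoprotein genes, 6 were higher at an unadjusted p under 0.05 and 1, APOB, was lower, with a median log2 fold change of 0.69. APOA1, the main protein of high-density lipoprotein, was at 546, 674, 1241 and 928 CPM in IVP calves 3208, 3209, 5833 and 5841, and at 259, 202, 365 and 233 CPM in MOET calves 3213, 3217, 3218 and 5932. Every IVP calf lay above every MOET calf, and the IVP calves of the second sire, 5833 and 5841, were the highest. The log2 fold change was 1.66 (SE 0.32, unadjusted p = 0.000643, FDR 0.125).

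APOC3, an inhibitor of lipoprotein lipase, lies next to APOA1 in the gene order of the RefSeq annotation. It was at 2466, 2430, 3250 and 3851 CPM in IVP calves and at 1502, 1395, 1669 and 1430 CPM in MOET calves, in the same calf order. The groups did not overlap, and the log2 fold change was 0.98 (SE 0.20, unadjusted p = 0.000984, FDR 0.125). APOE, a ligand for receptors that take up lipoprotein remnants, was at 6033, 7773, 6817 and 14010 CPM in IVP and at 4304, 4121, 5393 and 3803 CPM in MOET calves. All IVP values were above all MOET values, and calf 5841 was far above the other IVP calves. Its log2 fold change of 0.92 (SE 0.31, FDR 0.127) was 0.63 without calf 5841. APOA2, the second protein of high-density lipoprotein, had a log2 fold change of 0.69 (FDR 0.129), which was 0.49 without that calf.

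APOB, the scaffold protein of very-low-density lipoprotein, went the other way. It was at 950, 784, 919 and 641 CPM in IVP calves and at 1314, 1461, 1240 and 1268 CPM in MOET calves. The groups did not overlap, and here the IVP calves were the lower ones, with a log2 fold change of -0.67 (SE 0.17, unadjusted p = 0.00314, FDR 0.125). Thus the 5 apolipoproteins of this group did not share a direction. The remaining lipoprotein genes, named after their values were seen, were the hepatic lipase LIPC (0.35) and the transcription factor CREB3L3 (0.37), both higher at an unadjusted p under 0.05.

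**Figure D3:**
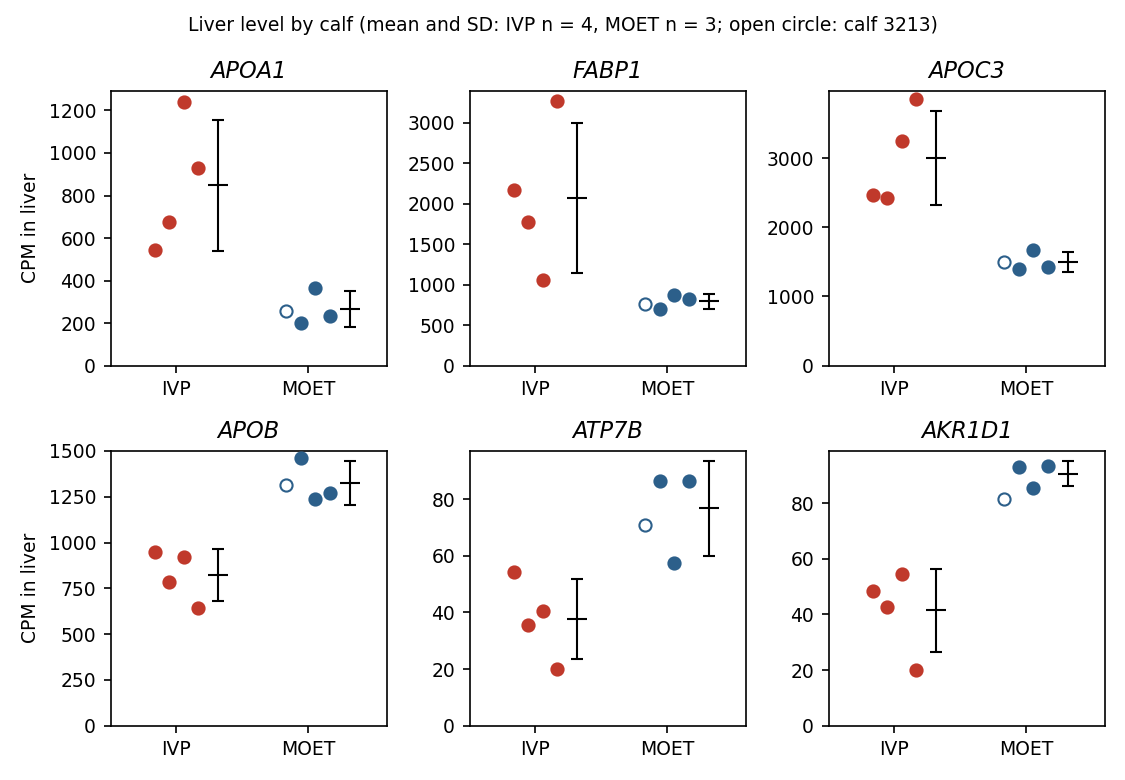
Level in liver (y axis, CPM, starting at 0) of 6 genes in each IVP (red) and MOET (blue) calf, with the mean and SD beside them (IVP n = 4; MOET n = 3, without calf 3213, the open circle). IVP calves lie above MOET calves for APOA1, FABP1 and APOC3 and below them for APOB, ATP7B and AKR1D1, with no overlap in any of the 6.

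Carrier proteins of the plasma were higher in IVP liver for 4 of 5 members at an unadjusted p under 0.05, and none was lower (median log2 fold change 0.58), where 49.5% of the named genes were higher. Transthyretin (TTR), which carries thyroxine and retinol-binding protein, was at 5995, 5679, 5908 and 8093 CPM in IVP calves and at 4191, 4235, 4479 and 3750 CPM in MOET calves. There was no overlap, and the log2 fold change was 0.61 (SE 0.18, unadjusted p = 0.00857, FDR 0.126). Its partner RBP4, the carrier of retinol, averaged 7733 ± 1422 CPM (SD, n = 4) in the IVP group against 5099 ± 655 CPM (SD, n = 3), with a log2 fold change of 0.58 (FDR 0.127).

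IGFALS, the subunit that holds insulin-like growth factors in their large plasma complex, was at 281, 257, 297 and 218 CPM in IVP calves and at 145, 148, 176 and 115 CPM in MOET calves. IVP calf 5841, the extreme calf for many other genes, was the lowest of its group here and still above every MOET calf. The log2 fold change was 0.85 (SE 0.18, unadjusted p = 0.00102, FDR 0.125). SERPINA7, the thyroxine-binding globulin, was the fourth (0.56, FDR 0.125, named after its values were seen). AZGP1, the zinc-binding alpha-2-glycoprotein, had an estimate of 0.24 with an unadjusted p of 0.142, and of 0.11 without calf 3209. Only 7 of the 26 carrier genes listed could be named, and the other 2, SHBG and IGFBP4, were no members. The acute phase protein ORM1, a carrier of basic drugs and steroids, had a log2 fold change of 0.79 (SE 0.21, unadjusted p = 0.0051, FDR 0.125) and was the only member among 31 acute phase genes listed, of which 2 had a name.

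Coagulation genes were mixed. Of 11 members, 7 were higher and 2 were lower at an unadjusted p under 0.05, with a median log2 fold change of 0.46. Factor X (F10), which cleaves prothrombin, was at 1361, 1694, 1538 and 2299 CPM in IVP calves and at 1040, 962, 1154 and 989 CPM in MOET calves. All IVP values exceeded all MOET values, and the log2 fold change was 0.71 (SE 0.20, unadjusted p = 0.00638, FDR 0.125). F10 stands between F7, which starts coagulation with tissue factor, and PROZ, a cofactor in the inhibition of factor X, in the RefSeq gene order. These neighbours, both named after their values were seen, had log2 fold changes of 0.67 (FDR 0.129) and 0.75 (FDR 0.125), and neither overlapped between groups.

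Protein C (PROC), which inactivates factors V and VIII, had a log2 fold change of 0.59 (FDR 0.127), although MOET calf 3218 (596 CPM) overlapped with IVP calf 3208 (595 CPM). Heparin cofactor II (SERPIND1) had means of 3557 ± 534 CPM (SD, n = 4) and 2502 ± 166 CPM (SD, n = 3) and a log2 fold change of 0.50 (FDR 0.127). The protein C inhibitor SERPINA5 had a log2 fold change of 0.46 (FDR 0.126). Factor XII (F12), also higher, had 0.41 and was named after its values were seen. The 2 lower genes were factor V (F5), with -0.43 (FDR 0.146), and SERPINA10, the inhibitor that works with PROZ, with -0.57 (FDR 0.166), both named after their values were seen. Factor XI (F11) and the carboxypeptidase N subunit CPN2 had estimates of 0.16 and 0.41 with unadjusted p-values of 0.256 and 0.0616, and were named in the same way. Without calf 5841 the estimate of F11 was 0.10.

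Of the 4 complement members, 1 was lower and none higher at an unadjusted p under 0.05, with a median of 0.00. C5, the start of the lytic complement pathway, averaged 1750 ± 134 CPM (SD, n = 4) in the IVP group against 1946 ± 341 CPM (SD, n = 3), with overlapping calves and an estimate of -0.16 (SE 0.16, unadjusted p = 0.355) that ranged from -0.29 without calf 5932 to -0.06 without calf 3218, and was -0.10 without 3217 or 5833. The lectins MBL2 and COLEC11, which bind microbial sugars, had estimates of 0.23 and 0.16 (unadjusted p = 0.136 and 0.199), and that of COLEC11 was 0.08 without calf 5932. CFHR5, a factor H-related protein, was lower in all IVP calves (269, 280, 238 and 151 CPM) than in all MOET calves (335, 354, 356 and 345 CPM), with a log2 fold change of -0.56 (SE 0.20, FDR 0.131). Among the 8 complement genes that were named but no members, 5 were higher and 2 lower, including the 3 C1q chains, which liver macrophages express.

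**Figure D4:**
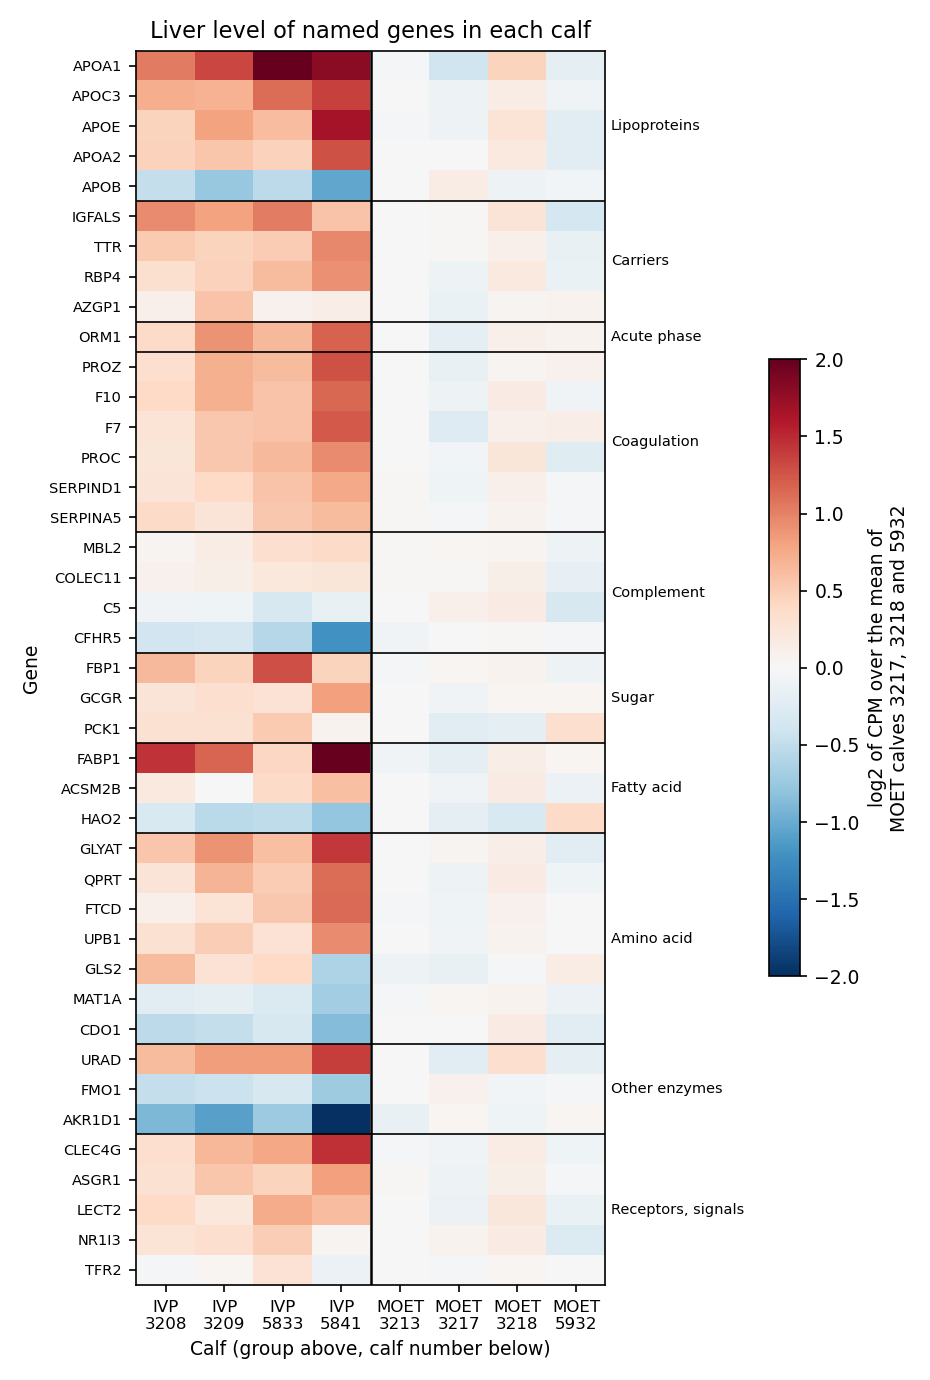
Level of named genes (rows, grouped by role) in the liver of each calf (columns) as log2 of its CPM over the mean of MOET calves 3217, 3218 and 5932 (red higher, blue lower, colour scale ending at 2 and -2). IVP calf 5841 has the deepest colours in many rows in both directions, and the column of MOET calf 3213 is nearly white.

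Enzymes of sugar metabolism gave 3 of 6 members higher and none lower at an unadjusted p under 0.05. Their median log2 fold change was 0.38. FBP1, which catalyses a committed step of glucose synthesis, was at 430, 372, 666 and 374 CPM in IVP calves and at 270, 280, 286 and 254 CPM in MOET calves. The groups did not overlap, calf 5833 was the highest, and the log2 fold change was 0.76 (SE 0.22, unadjusted p = 0.00701, FDR 0.125). The glucagon receptor GCGR was also higher (0.43, FDR 0.139). PCK1, the entry enzyme of glucose synthesis, was at 1575, 1563, 1828 and 1326 CPM in IVP and at 1275, 1095, 1106 and 1605 CPM in MOET calves. MOET calf 5932 lay within the IVP range, and the estimate of 0.33 had an unadjusted p of 0.116. Without that calf the estimate was 0.52 (unadjusted p = 0.0161, FDR 0.316), and within the calves of 1 dam and 1 sire it was 0.51.

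Fatty acid genes did not share a direction, with 2 of 5 members higher and 2 lower at an unadjusted p under 0.05. FABP1, which carries fatty acids inside the hepatocyte, was at 2175, 1776, 1060 and 3269 CPM in IVP calves and at 760, 695, 870 and 818 CPM in MOET calves. IVP calves spread over a wide range, yet the lowest of them was above the highest MOET calf. The log2 fold change was 1.34 (SE 0.34, unadjusted p = 0.00356, FDR 0.125). ACSM2B, which activates medium-chain fatty acids, had an estimate of 0.30 (unadjusted p = 0.118). The peroxisomal hydroxyacid oxidase HAO2 (-0.50, FDR 0.136) and the lipid hydrolase AADAC (-0.77, FDR 0.151) were lower. For HAO2 this rested on MOET calf 5932, without which the estimate was -0.27 (unadjusted p = 0.123), and within the calves of 1 dam and 1 sire it was -0.18.

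In amino acid metabolism, the methionine, glycine and serine group had 6 members with a median of 0.58. At an unadjusted p under 0.05, 4 were higher and 1 was lower. GLYAT, which conjugates acids with glycine, was at 937, 1189, 967 and 1711 CPM in IVP and at 636, 665, 701 and 553 CPM in MOET calves. The groups did not overlap, and the log2 fold change was 0.88 (SE 0.23, unadjusted p = 0.00453, FDR 0.125). Its neighbour in the RefSeq order, the related LOC112441481, had 0.84 (FDR 0.127, named after its values were seen) and 0.54 without calf 5932. The pyrimidine-degrading enzyme UPB1 (0.51, FDR 0.130), the sarcosine oxidase PIPOX (0.65, FDR 0.125) and the glyoxylate-detoxifying AGXT (0.65, FDR 0.136) were the others that were higher, and PIPOX and AGXT were named after their values were seen.

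CDO1, which oxidises cysteine on the way to taurine, was at 259, 267, 300 and 204 CPM in IVP calves and at 369, 377, 419 and 324 CPM in MOET calves. It was lower in every IVP calf, with a log2 fold change of -0.53 (SE 0.16, unadjusted p = 0.00987, FDR 0.126). MAT1A, which makes the methyl donor S-adenosylmethionine, also had every IVP calf below every MOET calf used for the mean, with an estimate of -0.32 (unadjusted p = 0.0647). Of the aromatic amino acid and histidine enzymes, QPRT, of the route from tryptophan to NAD, was higher (0.65, FDR 0.127). FTCD, of histidine breakdown, had an estimate of 0.53 (unadjusted p = 0.0569), which was 0.32 without calf 5841 and 0.18 within the calves of 1 dam and 1 sire. The glutaminase GLS2 had an estimate of 0.27 (unadjusted p = 0.313), which was 0.45 without calf 5841 and 0.12 without calf 3208.

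AKR1D1, the 5-beta-reductase of bile acid synthesis, was at 48.5, 42.7, 54.6 and 20.1 CPM in IVP calves and at 81.4, 93.1, 85.4 and 93.4 CPM in MOET calves. The highest IVP value was below the lowest MOET value, and the log2 fold change was -1.10 (SE 0.28, unadjusted p = 0.00379, FDR 0.125).

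ST3GAL1, which adds sialic acid to O-linked glycans, was at 70.6, 42.5, 48.6 and 22.9 CPM in IVP and at 92.1, 112, 79.5 and 113 CPM in MOET calves (log2 fold change -1.11, SE 0.32, FDR 0.125). ATP7B, which exports copper into bile, had a log2 fold change of -0.998 (FDR 0.125), and RELN, a secreted matrix protein, one of -0.91 (FDR 0.127). In all 3 the groups did not overlap, although RELN lies close to the ratio threshold. ENSBTAG00000001021 (-0.75, FDR 0.127) and ENSBTAG00000005386 (-0.68, FDR 0.136), which have no name here, were also among the 8 lowest estimates, as was AADAC.

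At the other end, the 8 highest estimates included 4 genes without a name, and their calves overlapped between groups. ENSBTAG00000017042 was at 100, 112, 373 and 709 CPM in IVP calves and at 75.1, 86.2, 88.6 and 109 CPM in MOET calves. Calves 3208 and 3209 lay near the MOET calves and 5833 and 5841 far above, so the log2 fold change of 1.68 (SE 0.67, FDR 0.144) was 0.28 within the calves of 1 dam and 1 sire and 1.05 without calf 5841. ENSBTAG00000009570 was at 346 CPM in calf 5841 and at 71.2 to 112 CPM in the other IVP calves, and its log2 fold change of 1.66 (FDR 0.130) was 1.01 without 5841.

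In the other 2, MOET calf 5932 stood apart from its group. ENSBTAG00000054649 was at 233, 377, 289 and 147 CPM in IVP calves and at 76.8, 35.9, 40.2 and 195 CPM in MOET calves. ENSBTAG00000046257 was at 132, 203, 168 and 84.5 CPM and at 48.7, 30.5, 30.2 and 105 CPM. In both, MOET calves 3217 and 3218 were lowest and 5932 lay within the IVP range. Calf 3213 lay between them. Over the 366 genes its adjusted counts lay close to the mean of the other MOET calves, so its place is not read as a level of its own. Without calf 5932 the estimates of both genes were 2.81 and 2.30 (FDR 0.176 and 0.272). Within the 4 calves of 1 dam and 1 sire their log2 fold changes were 3.003 (FDR 0.0115) and 2.46 (FDR 0.0118), and they were the only 2 of the 366 genes called there (0.132% of all genes tested). That fit had 2 calves a group. Over all calves the estimates were 1.58 (FDR 0.139) and 1.46 (FDR 0.127).

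The named genes among the 8 highest, besides APOA1 and FABP1, were LOC504773, described as regakine 1, a plasma chemokine of cattle, and GOLT1A, a Golgi transport protein. LOC504773 was at 486, 720, 665 and 1593 CPM in IVP and at 330, 293, 377 and 384 CPM in MOET calves, with a log2 fold change of 1.24 (SE 0.39, FDR 0.126) that was 0.83 without calf 5841. GOLT1A had 1.22 (SE 0.41, FDR 0.127), which was 0.77 without that calf. Both were thus higher in all IVP calves, with calf 5841 the highest.

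Signalling and receptor genes included ASGR1, the receptor that clears desialylated plasma glycoproteins, with a log2 fold change of 0.53 (FDR 0.125), and LECT2, a hepatokine, with 0.50 (FDR 0.128). CLEC4G, a lectin of the sinusoidal endothelium rather than of hepatocytes, was at 137, 173, 187 and 300 CPM in IVP and at 107, 104, 121 and 103 CPM in MOET calves (log2 fold change 0.83, SE 0.25, FDR 0.126). The xenobiotic receptor NR1I3 and the iron sensor TFR2 had estimates of 0.30 and 0.06 (unadjusted p = 0.0771 and 0.659), and that of NR1I3 was 0.19 without calf 5932. The direction of TFR2 turned to -0.09 with library totals. URAD, of the breakdown of urate, was higher (0.92, SE 0.22, FDR 0.125). The flavin monooxygenase FMO1 was lower (-0.47, FDR 0.125).

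The 3 members LOC100138004, LOC615303 and LOC540615 are UDP-glucuronosyltransferases by their description and so belong to a family that the rule meant to leave out by symbol. LOC100138004 was at 196, 188, 210 and 235 CPM in IVP and at 331, 378, 323 and 279 CPM in MOET calves, with a log2 fold change of -0.67 (SE 0.15, unadjusted p = 0.00139, FDR 0.125). Its neighbour LOC615303 had an estimate of -0.57 (unadjusted p = 0.0592) and LOC540615 a log2 fold change of -0.56 (FDR 0.127). All 3, named after their values were seen, were lower in their IVP means. Members of this family resemble each other in sequence, so their counts are uncertain where reads could be placed on more than 1 of them.

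Zonation, the division of hepatocyte tasks along the lobule, was covered thinly. Of 6 periportal members (among them PCK1, FBP1, GLS2 and AGXT), 3 were higher and none lower at an unadjusted p under 0.05. Their median was 0.40, and the single pericentral member, LECT2, was higher at that threshold. Only 6 of 22 periportal and 3 of 20 pericentral genes listed could be named, and both pericentral genes that were no members were lower.

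The spread between calves differed by group. The median SD of log2 CPM over the 366 genes was 0.26 in IVP and 0.17 in MOET liver, and 0.17 in IVP liver without calf 5841. The SD was larger in IVP liver for 255 genes (69.7%, against 71.5% of all genes tested). Calf 5841 was the highest of the 8 calves for 118 genes and the lowest for 107, together 61.5% of the 366, against 69.3% of all genes tested. MOET calf 5932 was the lowest for 119 and the highest for 29, together 40.4% of the 366, against 32.8% of all genes tested.

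Markers of other liver cells were compared between the groups as well. None of the named macrophage, endothelial, fibroblast or bile duct markers passed an FDR of 0.05 in liver. The summed level of the 6 named macrophage markers of 14 (CSF1R, C1QA, C1QB, C1QC, MSR1 and AIF1) was 1632 to 2863 CPM in IVP and 1214 to 1535 CPM in MOET liver, and all 6 were higher at an unadjusted p under 0.05. All IVP calves lay above the MOET calves used for the means for 5 of these 6. With library totals as the scale this held for only 1. Among all genes tested 14.8% were higher and 15% lower at that threshold. The 4 named collagen and matrix markers of fibroblasts and stellate cells, of 12 listed, had 3 lower at that threshold. They summed to 499 to 660 CPM in IVP and 794 to 843 CPM in MOET liver. For 3 of them all IVP calves lay below those MOET calves on either scale. For 4 of 13 endothelial markers the sums overlapped, at 354 to 520 CPM in IVP and 336 to 358 CPM in MOET liver. CLEC4G was higher and VWF lower at that threshold. The 2 named bile duct markers of 9 summed to 4.47 to 5.90 CPM and 6.44 to 7.43 CPM, 1 of them lower. No erythroid marker had a name. The acinar gene PRSS2, the only 1 of 17 listed acinar markers with a name, was at 293 to 599 CPM in IVP liver and at most 0.0395 CPM in MOET liver. PRSS2 was also at up to 21.8 CPM in a muscle library, and 1 gene does not stand for a cell type. The part of these cell types in the differences of the 366 genes was not tested.

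Gene span also went with the estimate. Over the 97 named genes, Spearman's rho between the length of the gene with its introns and the log2 fold change was -0.53, a description over genes that share the same 8 libraries. Over all 3645 named genes tested it was -0.53 as well. The 48 genes that were higher at an unadjusted p under 0.05 had a median span of 10361 bases. The 17 that were lower at that threshold had a median of 37878 bases, and the other 32 one of 17759 bases. APOA2, the shortest, spans 1256 bases and RELN, the longest, 558501 bases. Their estimates were 0.69 and -0.91.

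**Figure D5:**
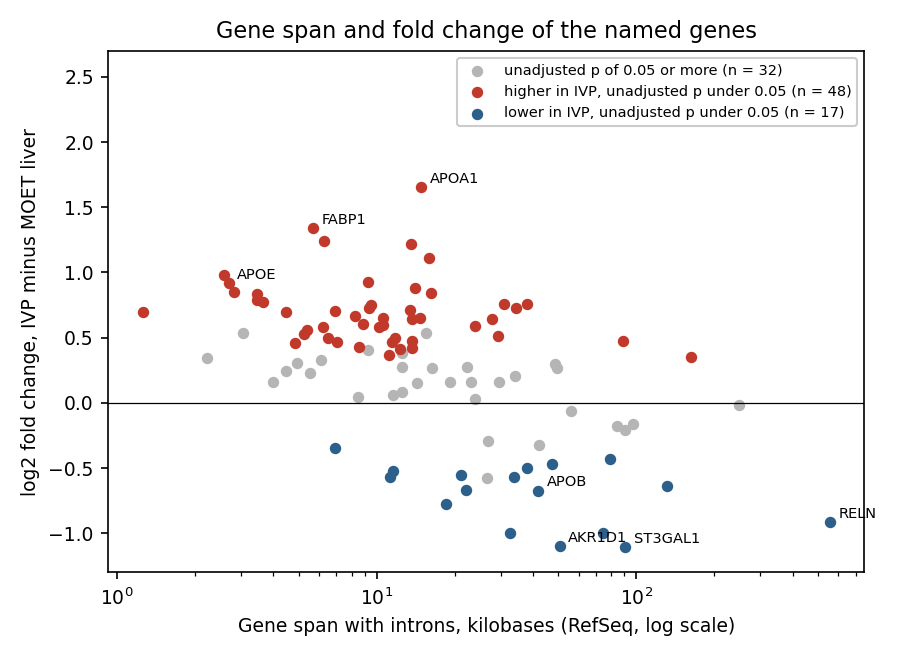
Span of the 97 named genes with introns in the RefSeq annotation (x axis, kilobases, log scale) and log2 fold change of IVP against MOET liver (y axis). Genes higher in IVP liver at an unadjusted p under 0.05 (red, n = 48) had a median of 10361 bases and lower ones (blue, n = 17) 37878 bases, with Spearman's rho of -0.53.

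In the RefSeq order of protein-coding genes the 97 named genes held 6 adjacent pairs: F7 and F10, F10 and PROZ, APOC3 and APOA1, GLYAT and LOC112441481, LOC100138004 and LOC615303, and SAO and LOC100138645. The estimates of APOC3 and APOA1 were 0.98 and 1.66, and those of F7, F10 and PROZ lay between 0.67 and 0.75. The libraries do not mark strand, so overlapping genes on opposite strands cannot be told apart.

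Within the 4 calves of 1 dam and 1 sire (IVP 3208 and 3209, MOET 3217 and 3218), 313 of the 366 estimates kept their sign. Those calves are also part of the fit over all calves, so agreement in sign is in part built in. How many of all genes tested kept their sign was not counted. The median of the 366 genes lay 0.06 above that of all genes tested, instead of 0.14 over all calves. The log2 fold changes there were 1.10 for APOA1, 0.68 for APOC3, 1.33 for FABP1, 0.42 for TTR, -0.64 for APOB and -0.97 for AKR1D1. Each had the same sign as over all calves, and none passed an FDR of 0.05 in that fit.

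The most abundant gene did not differ beyond the spread between calves. ENSBTAG00000017121 was at 90310, 89180, 104459 and 74677 CPM in IVP calves and at 84400, 91211, 97139 and 66644 CPM in MOET calves. The groups overlapped throughout, and the estimate was 0.08 (SE 0.22, unadjusted p = 0.721), with a sign that changed with library totals (-0.06), within the calves of 1 dam and 1 sire (-0.07) and without calf 5932 (-0.06). By level, the median was 0.16 for genes of at least 1000 CPM, 0.15 for 200 to 1000 CPM and 0.07 below 200 CPM. At an unadjusted p under 0.05, 15 of 77 genes of at least 1000 CPM were higher (19.5%) and 2 lower (2.60%). At 200 to 1000 CPM 34 of 147 were higher (23.1%) and 11 lower (7.48%), and below 200 CPM 27 of 142 (19.0%) and 13 (9.15%). Among all genes tested 14.8% were higher and 15% lower, and among other genes of at least 50 CPM 28.6% and 7.71%.

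In muscle, 89 of the 366 genes had enough counts to be tested, and they were tested for their trace level there. At an unadjusted p under 0.05, 7 were higher (7.87%, against 11.4% of all genes tested in muscle) and 8 lower (8.99%, against 8.43%). One gene, ENSBTAG00000021887, passed an FDR of 0.05 (0.467% of all genes tested in muscle were called). It was at 0.123, 0.596, 0.146 and 0.663 CPM in the muscle of IVP calves 3208, 3209, 5833 and 5841 and at 2.00, 2.21, 2.77 and 3.10 CPM in MOET calves 3213, 3217, 3218 and 5932. The groups did not overlap, but the values rest on 3 to 83 counts a library. In IVP calves 3208 and 5833 it was below 10 counts, and it passed the filter through the MOET calves, where it was high. It fell by 2.84 on the log2 scale in IVP muscle (SE 0.43, edgeR FDR 0.0241), whereas in liver, at 933 CPM, its estimate was -0.10 (unadjusted p = 0.569). The call was lost without MOET calf 3217, 3218 or 5932 (FDR 0.0737, 0.134 and 0.107) and within the calves of 1 dam and 1 sire (FDR 0.0965).

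TTR, the thyroxine carrier, was at 2.41, 34.1, 3.93 and 2.10 CPM in the muscle of IVP calves and at 0.341, 0.542, 0.755 and 0.374 CPM in MOET calves. All IVP values were higher, and calf 3209 was far above the others with 801 counts. In MOET calf 3213 TTR was below 10 counts, and it passed the filter through the IVP calves, where it was high. The log2 fold change was 4.397 (SE 1.14, unadjusted p = 0.00265, FDR 0.094). Without calf 3209 it was 2.35 (FDR 0.0122), and TTR also passed an FDR of 0.05 without age (FDR 0.033), with DESeq2 and age (0.0114) and without a filter (0.0495). Over all alternatives its FDR ranged from 0.0114 to 0.288, with none given by DESeq2 without age. PCK1 had an estimate of -0.75 in muscle (unadjusted p = 0.0419). The highest levels of members in muscle were those of ENSBTAG00000008612 (24.2 CPM), ENSBTAG00000005586 (23.6 CPM), ENSBTAG00000004840 (18.1 CPM), ENSBTAG00000015505 (14.4 CPM) and APOE (13.9 CPM).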

How the data were processed

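Poly(A), unstranded RNA-seq of liver and muscle from 8 calves (16 libraries) was used. Per the labels and the methods of the study, reads were filtered with SOAPnuke, aligned with STAR (version 2.7) to bosTau9 with Ensembl release 102 and counted with HTSeq-count, and the authors then controlled the counts for age with sva. The model they used is not given in the sources used here. The deposited values are whole numbers that were therefore treated as estimated counts. All 16 columns matched a label, and 0 further columns held values.

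Genes were fitted per organ with edgeR (version 4.0.16, R 4.3.3; filterByExpr at 10 counts and a total of at least 15, TMM factors, quasi-likelihood test of IVP against MOET with age in days as covariate, Benjamini-Hochberg over all genes tested). The design had assumed plain counts, and the same test was kept for the adjusted ones. Replicates were calves, of which several share parents. Per-calf CPM used TMM-scaled library sizes, whereas the thresholds used library totals. DESeq2 (version 1.42.0) and other settings were alternatives. On simulated data, in which 200 of 14180 liver genes were given a log2 change of 1, the liver fit called 92 (46.0%), and 5.15% of its calls were false. In muscle it called 133 of 200 (66.5%) among 12751 genes, with 6.99% false. The simulated calves were drawn independently, with no age adjustment and no shared parents. These rates need not hold for the deposited counts.

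Symbols came from tables that accompany the study, which name 4181 of the 27607 IDs. Gene order and span came from RefSeq (assembly ARS-UCD2.0, matched by gene number), whose build differs from that of the counts, so no coordinates are given. Members and lists were chosen with earlier results of these data known. Named in the text were, in each role list, up to 4 members with the highest liver level, any member past the FDR threshold (up to 10), the 8 highest and 8 lowest log2 fold changes, the 5 members just inside and 3 genes just outside each threshold, and the 5 members highest in muscle. Others are marked as named after their values were seen. Some genes that met these criteria are not reported here.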

Additional observations from a re-analysis of the deposited data

Results flagged for a closer look

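In IVP liver, 8 of the 72 genes whose differences are described had 1 calf far from the other 3 (the gap to the nearest calf divided by the range of the group was above Dixon's critical value for 4 samples), as had 27 of the 366 genes. Chance gives such a gap in about 1 group in 20, but these genes share the same calves and are not independent. The share over all genes tested was not computed. Calf 5841 alone was the highest or lowest of the 8 calves for 69.3% of all genes tested and for 61.5% of the 366. Calf 5841 was the highest for TTR (8093 CPM, others 5679 to 5995 CPM, ratio 0.869) and for APOA2 (8755 CPM, others 5001 to 5324 CPM, ratio 0.914). The same calf was highest for GCGR (523 CPM, others 358 to 376 CPM, ratio 0.887), for STAP2 (346 CPM, others 209 to 227 CPM, ratio 0.866), for ENSBTAG00000009570 (346 CPM, others 71.2 to 112 CPM, ratio 0.853) and for GOLT1A (159 CPM, others 47.1 to 64.0 CPM, ratio 0.849). Calf 3209 was the highest for AZGP1 (201 CPM, others 145 to 149 CPM, ratio 0.924), and calf 5833 for LIPC (273 CPM, others 221 to 224 CPM, ratio 0.945).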

How the results depend on the processing

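In liver, 0 of the 366 genes passed an FDR of 0.05 in edgeR with age, but 75 did without age, 53 with DESeq2 and age, 125 with DESeq2 without age, 2 within the calves of 1 dam and 1 sire, and 32 without age, 3213 and 5841 (an alternative added after the data were seen). The 75 and the 53 all had an unadjusted p under 0.05 in the fit with age, and the cause of the difference was not tested. Without single calves, in fits that kept the age covariate, the count was 0 to 53. It was 53 without MOET calf 3213, 32 without IVP calf 5841 and 1 (APOA1) without IVP calf 3208. The count stayed 0 without calf 3213 and without age. The number higher at an unadjusted p under 0.05 (76) was 123 with DESeq2 without age, 49 with library totals and 28 to 88 without single calves (28 without MOET calf 3217, 39 without MOET calf 5932). The number lower (26) was 40 with DESeq2 without age, 48 with library totals and 16 to 34 without single calves (17, 16 and 17 without MOET calves 3217, 3218 and 5932). The distance between the medians of the 366 genes and of all genes (0.14) was 0.0864 over genes of at least 5 CPM, 0.0593 within the calves of 1 dam and 1 sire, and 0.0634 (without MOET calf 5932) to 0.169 without single calves.

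In muscle, the count at an FDR of 0.05 (1) was 6 without age, 4 with DESeq2 and age, 5 with DESeq2 without age, 2 without a filter, 0 over genes of at least 5 CPM, where 9 members were left, 0 within the calves of 1 dam and 1 sire and 0 to 3 without single calves (3 without IVP calf 3209). The number higher (7) was 11 without age, 15 with DESeq2 without age, 15 without a filter and 2 over genes of at least 5 CPM, and 5 to 10 without single calves. The number lower (8) was 5 with DESeq2 and age, 1 over genes of at least 5 CPM, 5 within the calves of 1 dam and 1 sire, and 5 to 12 without single calves.

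Of 1368 recomputed differences of the 72 genes named for theirs, 1130 kept their direction and side of the threshold, 233 kept their direction and passed an FDR of 0.05, and 5 changed sign, in 2 genes with estimates near 0. These were TFR2 (-0.0947 with library totals, -0.0262 without IVP calf 5833, and -0.0262 to 0.108 without single calves) and ENSBTAG00000017121 (-0.0595 with library totals, -0.0703 within the calves of 1 dam and 1 sire, -0.0589 without MOET calf 5932, and -0.0589 to 0.197 without single calves). The number of genes that met the rule was 297 to 433 under other thresholds and scalings. No paired analysis was possible because IVP and MOET calves are different animals and the calf number only joins the liver and muscle of 1 calf. Members low in muscle rest on few counts there.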
